A study of Mus musculus with 5 samples.

Results

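Sorbs2, Lpcat2, Vat1l and Nkd1 are 4 protein-coding genes of mouse chromosome 8. They were chosen by symbol because earlier results had shown each of them higher in the deleted than in the wildtype cells, so those differences are given as a description, with no test. The deposited table holds 24538 genes with rows, of which 16259 had enough counts for a test, and 3591 of these carry a gene symbol. All 4 genes were among them, each with at least 72 counts in every library, and together they have 59 exon bins.

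The cells were murine embryonic stem cells, cultured pluripotent cells of the early embryo. The deleted group (2 libraries, deleted 1 and 2) lacked the −45 super-enhancer, a dense cluster of enhancers that belongs to the pluripotency gene Nanog, and the wildtype group (3 libraries, wildtype 1 to 3) carried it. Per the labels' protocols, cells of both groups were plated in 6-well plates and kept for 6 days with ethanol vehicle or tamoxifen (4OHT), and polyadenylated RNA was sequenced. The labels do not say which library had which agent, and they name no clone, sex or culture of origin. The design text speaks of 3 replicates in each condition, and the third deleted one is not analysed here. A p-value below can therefore reflect only library-to-library spread, part or all of it technical.

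The 4 genes have unrelated roles. Sorbs2 encodes an adaptor with a sorbin domain and SH3 domains that sits on actin fibres and binds Abl-family kinases. Lpcat2 encodes an enzyme of membrane lipid remodelling that puts an acyl chain onto lysophosphatidylcholine and can also make platelet-activating factor (PAF). Vat1l is named for its likeness to the vesicle amine transport gene Vat1, a relative of the quinone oxidoreductases. Nkd1 encodes a protein that binds Dishevelled and dampens Wnt signalling, and it is itself a Wnt target in many tissues. What they share is the chromosome. Gain of chromosome 8 is a well-known change in mouse embryonic stem cell cultures, and 1 extra copy of a chromosome present in a pair would give a ratio of 3/2, or 0.58 on the log2 scale, if RNA followed copy number. Copy number was not measured here.

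The 250 bases before a listed start of each gene are shown so that their promoters can be compared, since the genes moved in the same direction. RefSeq (GRCm38.p6) gives starts for 4 of the 4 genes, 6 starts in all, and the first listed start of each gene is printed 5′ to 3′. Capitals mark matches on either strand to the GC box GGGCGG, the TATA box TATAAA and the CCAAT box CCAAT.
Sorbs2, chr8:45507538-45507787, plus strand: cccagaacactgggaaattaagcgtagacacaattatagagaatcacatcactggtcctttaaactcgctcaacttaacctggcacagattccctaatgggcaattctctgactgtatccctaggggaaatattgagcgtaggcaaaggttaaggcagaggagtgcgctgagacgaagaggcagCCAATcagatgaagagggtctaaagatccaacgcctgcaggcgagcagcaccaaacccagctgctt
Nkd1, chr8:88527383-88527632, plus strand: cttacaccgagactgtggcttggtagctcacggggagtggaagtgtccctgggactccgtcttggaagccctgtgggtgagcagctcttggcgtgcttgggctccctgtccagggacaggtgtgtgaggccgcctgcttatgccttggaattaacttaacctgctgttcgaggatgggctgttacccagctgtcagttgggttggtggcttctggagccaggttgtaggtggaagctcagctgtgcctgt
Lpcat2, chr8:92855083-92855332, plus strand: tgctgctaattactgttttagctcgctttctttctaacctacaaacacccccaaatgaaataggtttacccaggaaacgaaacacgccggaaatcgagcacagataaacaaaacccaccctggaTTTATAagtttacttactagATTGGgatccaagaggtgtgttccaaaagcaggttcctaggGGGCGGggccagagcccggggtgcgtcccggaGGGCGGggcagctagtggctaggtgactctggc
Vat1l, chr8:114205390-114205639, plus strand: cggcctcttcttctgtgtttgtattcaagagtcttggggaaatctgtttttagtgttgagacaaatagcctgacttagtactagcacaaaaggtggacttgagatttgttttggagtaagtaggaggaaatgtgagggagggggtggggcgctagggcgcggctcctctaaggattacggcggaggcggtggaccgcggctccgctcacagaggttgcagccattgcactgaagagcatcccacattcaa
Lpcat2 held 2 GC boxes, 1 TATA-box match on the minus strand and 1 CCAAT-box match on the minus strand. Sorbs2 held 1 CCAAT box, and the windows of Nkd1 and Vat1l held none of these letters. Of 32841 RefSeq windows of the same length, 32.7% held a GC box, 12.4% a TATA box and 33.9% a CCAAT box. The letters that TCF and LEF factors of Wnt signalling bind (CTTTGAA or CTTTGAT, and likewise CTTTGTA or CTTTGTT, either strand) were in 14.8% of all windows and in none of the 4 printed ones. Among the other starts of Sorbs2, the third had 1 such match. The 4 windows held 7, 6, 10 and 10 CG pairs in Sorbs2, Nkd1, Lpcat2 and Vat1l, against a median of 6 over all windows. No motif was common to the 4 windows, and nothing was measured at these promoters.

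The libraries held 93574609 and 99134363 bin counts in the deleted group, against 114838600 to 213042746 in the wildtype group, the deepest being wildtype 3. Rows with symbols took 0.328% to 0.375% of each library's counts, the rest being under assembly IDs that the table does not pair with symbols. Reads of the 4 genes may be divided with such an ID, so the levels below are those of the symbol rows. One count was worth 0.00463 to 0.0107 CPM (counts scaled to a common library size by edgeR's TMM), and 3 counts 0.0139 to 0.0321 CPM. Wildtype 3 stood somewhat apart. The SD over genes of its log2 difference was 0.307 from wildtype 1 and 0.317 from wildtype 2, against 0.295 between deleted 1 and 2 and 0.270 between wildtype 1 and 2. Across all genes 39.5% passed the threshold (6421 of 16259, edgeR adjusted p under 0.05), and without wildtype 3 the count was 8282. It was 3206 without deleted 1 and 3864 without deleted 2. None of the 16 stem cell markers listed, Nanog, Pou5f1 and Sox2 among them, has a row under its symbol, so neither the cell type nor the deletion was checked here through them.

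Sorbs2 and Lpcat2 were about 3-fold higher in the deleted cells, and Vat1l and Nkd1 about 2-fold. Sorbs2 stood at 2.29 and 2.61 CPM in deleted 1 and 2 (214 and 259 counts), against 0.812, 0.735 and 0.810 CPM in wildtype 1, 2 and 3 (101, 84 and 175 counts). Lpcat2 stood at 2.27 and 2.03 CPM in deleted 1 and 2 (212 and 201 counts), against 0.643, 0.718 and 0.532 CPM in wildtype 1, 2 and 3 (80, 82 and 115 counts). In both genes every deleted library lay far above every wildtype library, and wildtype 3 was the lowest library for Lpcat2 but not for Sorbs2. Vat1l stood at 3.33 and 3.41 CPM in deleted 1 and 2 (311 and 338 counts), against 1.62, 1.70 and 1.74 CPM in wildtype 1, 2 and 3 (202, 194 and 376 counts). Its deleted libraries were the most even of the 4 genes. Nkd1 stood at 1.34 and 1.03 CPM in deleted 1 and 2 (125 and 102 counts), against 0.651, 0.630 and 0.648 CPM in wildtype 1, 2 and 3 (81, 72 and 140 counts). Its wildtype libraries were nearly equal and its deleted libraries, relative to their mean, differed most of the 4 genes, deleted 1 being the higher. The groups did not overlap in 4 of 4 genes. Of all tested symbols 32.8% had both deleted libraries above all wildtype libraries, and since the genes were chosen on this contrast the 4 are not read against that share.

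**Figure D1:**
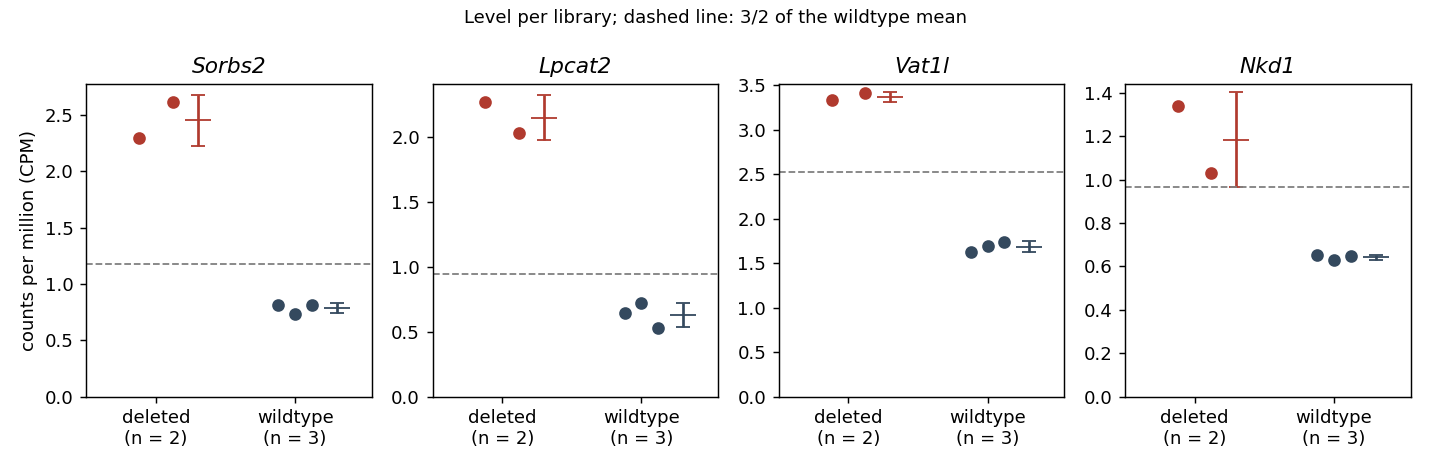
Level of each gene in CPM (y axis, from 0) for the 2 deleted and 3 wildtype libraries (points), with the mean and SD of each group beside them and a dashed line at 3/2 of the wildtype mean. Every deleted library lies above the line, Nkd1 in deleted 2 (1.03 CPM) the closest to it.

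Each ratio was above 3/2, as was the fitted fold of 21.9% of all tested symbols, a share from which nothing is read because the genes were chosen on this contrast. The mean of Lpcat2 was 2.15 ± 0.172 CPM in deleted cells (n = 2, SD), against 0.631 ± 0.0933 CPM in wildtype cells (n = 3, SD), which is a ratio of 3.41. That of Sorbs2 was 2.45 ± 0.227 CPM in deleted and 0.786 ± 0.0438 CPM in wildtype cells, a ratio of 3.12. Vat1l averaged 3.37 ± 0.0559 CPM in deleted and 1.69 ± 0.0589 CPM in wildtype cells, and its ratio was 2.00. Nkd1 averaged 1.18 ± 0.219 CPM in deleted and 0.643 ± 0.0113 CPM in wildtype cells, and its ratio was 1.84. Relative to 3/2 these ratios were 2.27 times as large for Lpcat2, 2.08 times for Sorbs2, 1.33 times for Vat1l and 1.23 times for Nkd1.

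With each deleted library set against each wildtype library, 6 ratios per gene can be formed. They ran from 2.83 to 4.27 in Lpcat2, from 2.82 to 3.56 in Sorbs2, from 1.92 to 2.10 in Vat1l and from 1.58 to 2.13 in Nkd1. The lowest of the 6 was thus above 3/2 in each gene, by a wide margin in Lpcat2 and Sorbs2 and narrowly in Nkd1. Among all tested symbols 10.5% met the same condition, and again the choice of the genes leaves nothing to read from it. The fitted log2 fold changes were 1.79 ± 0.16 for Lpcat2, 1.64 ± 0.12 for Sorbs2, 0.997 ± 0.0969 for Vat1l and 0.88 ± 0.16 for Nkd1 (edgeR, SE). They exceeded the log2 of 3/2 by 1.20, 1.05, 0.41 and 0.29. Without deleted 1 the Nkd1 value was 0.68 and without deleted 2 it was 1.04, both above that line. The order of the 4 genes is not firm, since Lpcat2 and Sorbs2 overlap in their SE, as do Vat1l and Nkd1.

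The exon bins of a gene were counted separately, and most of them moved with the gene. Of the 59 bins, 35 had at least 30 counts over the 5 libraries. In all 35 the mean was higher in deleted than in wildtype cells, in 33 the ratio was above 3/2, and in 18 the lowest of the 6 library ratios was above 3/2 too. These bins hold from 30 counts upwards, so single ratios are loose. All are the same contrast that chose the genes and carry no test.

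In Sorbs2 all 8 such bins were above 3/2, from 2.13 in bin 12 to 3.95 in bin 9. The most counted, bin 25 with 79 and 88 counts in deleted and 38, 28 and 67 in wildtype libraries, had a ratio of 3.02, and the other bins together had 3.18. Of all counts of Sorbs2, bin 25 took 35.4% ± 2.08 in deleted cells (n = 2, SD), against 36.4% ± 2.69 in wildtype cells (n = 3, SD), a gap smaller than the SD of either group. The antisense gene Sorbs2os, which GENCODE vM21 places within Sorbs2 on the opposite strand, had 5 and 4 counts in the deleted libraries and 2, 0 and 3 in the wildtype libraries. Without a stated strand setting its reads cannot be told apart from those of Sorbs2, but they are few beside the counts of Sorbs2.

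In Lpcat2 all 11 bins with enough counts were above 3/2, from 2.15 in bin 11 to 9.51 in bin 2. Bin 2 had 23 and 24 counts in the deleted libraries, against 3, 5 and 2 in the wildtype libraries. It took 11.4% ± 0.772 of all Lpcat2 counts in deleted cells (n = 2, SD), against 3.86% ± 2.18 in wildtype cells (n = 3, SD), the widest shift in share within the gene. Its most counted bin, bin 1, had a ratio of 3.66, and the other bins together had 3.36.

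In Vat1l 8 of 9 bins were above 3/2, and the exception was bin 6 at 1.41. Bin 9, which held 48.0% ± 1.53 of the counts in deleted cells (n = 2, SD), against 45.6% ± 3.23 in wildtype cells (n = 3, SD), had 146 and 166 counts in the deleted libraries and 85, 90 and 182 in the wildtype libraries. Its ratio was 2.10 and that of the other bins together 1.91.

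Nkd1 was the one gene of the 4 whose most counted bin had the lowest ratio of its bins. Bin 11 had 38 and 24 counts in the deleted libraries, against 34, 28 and 46 counts in the wildtype libraries. In CPM these were 0.407 and 0.242 in deleted 1 and 2, against 0.273, 0.245 and 0.213 in wildtype 1, 2 and 3, so deleted 2 lay inside the range of the wildtype libraries. The ratio of bin 11 was 1.33, below 3/2, and its 6 library ratios ran from 0.886 to 1.91. The other bins of Nkd1 together had a ratio of 2.15, with library ratios from 1.81 to 2.47. Bin 11 took 27.0% ± 4.86 of all Nkd1 counts in deleted cells (n = 2, SD), against 37.9% ± 4.64 in wildtype cells (n = 3, SD). Fitted from the most counted bin of every gene, the log2 fold change of Nkd1 was 0.45, which is below the log2 of 3/2, whereas those of Sorbs2, Lpcat2 and Vat1l were 1.60, 1.94 and 1.09.

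**Figure D2:**
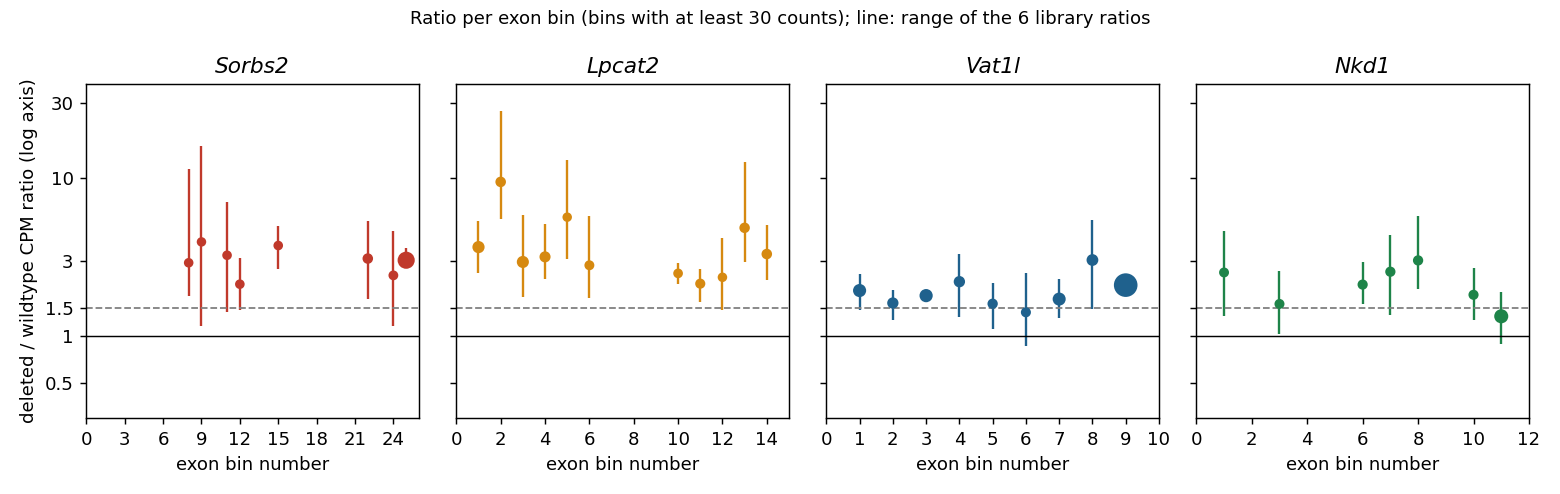
Ratio of mean CPM, deleted over wildtype (y axis, log scale), for each exon bin with at least 30 counts (x axis, bin number), with a line over the 6 library ratios, point area growing with the bin's counts, a solid line at 1 and a dashed line at 3/2. Points of 33 of 35 bins lie above the dashed line, and bin 11 of Nkd1 (1.33) and bin 6 of Vat1l (1.41) lie below it.

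Many other symbols of chromosome 8 were also higher in the deleted cells. GENCODE vM21 and RefSeq placed 99.6% of tested symbols on a chromosome, both on GRCm38, which is not the authors' mm9, so only the chromosome and the order of genes are used. Leaving the 4 genes out, 162 tested symbols lie on chromosome 8. Of these 65 rose, 2 fell and 95 did not pass (edgeR adjusted p under 0.05), 40.1% higher and 1.23% lower. Among the 3412 tested symbols of other chromosomes 17.8% were higher and 13.5% lower, and among all symbols 18.9% and 12.9%. Without deleted 1 the count of risen chromosome 8 symbols was 39 and without deleted 2 it was 37, where the lone deleted library is assumed to vary like the wildtype ones. Counted from the most counted bin of each gene, where 113 chromosome 8 symbols could be tested, 32 rose, against 350 of 2592 off chromosome 8. The count of fallen symbols was 1 without deleted 1 and 4 without wildtype 3. Off chromosome 8 the risen symbols numbered 607, and 285 and 293 without those libraries. The 2 that fell were named after their values were seen. Nrg1, a ligand gene of ErbB receptors, had a fitted log2 difference of −1.39 ± 0.22 (edgeR, SE; adjusted p = 0.00214), and Efnb2, an ephrin ligand gene, −0.47 ± 0.10 (edgeR adjusted p = 0.00985). The Efnb2 call ended without deleted 1 (−0.41; edgeR adjusted p = 0.0848).

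The median log2 fold change of the 162 symbols was 0.51, a 1.42-fold difference, with the middle 50% between 0.11 and 0.92. Off chromosome 8 the median was 0.05. Of the 162 symbols, 73 (45.1%) had a fitted fold change above 3/2, against 20.7% off chromosome 8. The median of these 162 symbols thus lay slightly below 3/2, and it was lower among the more highly counted ones, as given below. Rows under assembly IDs were not placed on a chromosome, so the median describes symbol rows only. Of the 162, 10 had a larger fitted fold than Lpcat2, 11 than Sorbs2, 39 than Vat1l and 47 than Nkd1, a place from which nothing is read because the 4 genes were chosen on this contrast. Each other chromosome with its tested symbols had a lower median, from −0.13 for chromosome 17 to 0.34 for chromosome 12, the Y chromosome being left out. With TMM computed on symbol rows alone the chromosome 8 median was 0.43 and the median off chromosome 8 was −0.03. Under that scaling 37.4% of all called genes were higher, against 50.5% with the scaling used throughout.

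**Figure D3:**
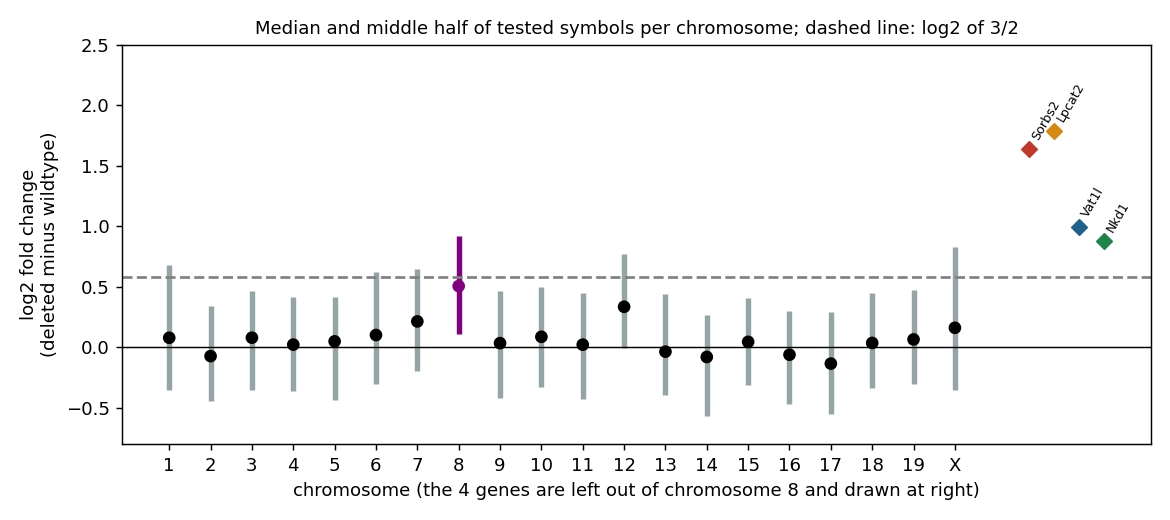
Median log2 fold change, deleted minus wildtype (points, y axis), and middle 50% (bars) of the tested symbols of each chromosome (x axis), with the 4 genes left out of chromosome 8 and drawn at right, and a dashed line at the log2 of 3/2. Chromosome 8 (0.51) has the highest median, and the 4 genes lie between 0.88 and 1.79.

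The shift was seen in both deleted libraries. The median log2 difference of the 162 symbols from the wildtype mean was 0.48 in deleted 1 and 0.47 in deleted 2, against −0.05, 0.01 and 0.04 for wildtype 1, 2 and 3, each set against the other wildtype libraries. Off chromosome 8 the same medians were 0.05 and 0.06 in deleted 1 and 2, against −0.04, −0.02 and 0.05 in wildtype 1, 2 and 3. The 162 symbols took 4.92% and 4.90% of the counts of tested symbols in deleted 1 and 2, against 3.87%, 3.86% and 3.86% in wildtype 1, 2 and 3. Sorbs2, Lpcat2, Vat1l and Nkd1 together took 0.268% and 0.259% in deleted 1 and 2, against 0.115%, 0.116% and 0.103% in wildtype 1, 2 and 3. The libraries within each group were close on both measures, and the groups did not overlap. For the 4 genes that gap follows from their choice on this contrast, so nothing is read from it.

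The size of the shift varied with the level of the genes. At a mean log2 CPM below 0, the median of 117 chromosome 8 symbols was 0.63, against 0.09 for 2445 symbols of other chromosomes. Where the mean log2 CPM was 0 or higher, a bound set after seeing the data, the median of 45 chromosome 8 symbols was 0.33, against −0.03 for 967 symbols elsewhere. A gene could pass the low-count filter through the deleted or the wildtype libraries alone, which can favour large differences in either direction among the weakly counted. With at least 10 counts in every library the chromosome 8 median was 0.45, against 0.057 off the chromosome. This bound asks for a higher CPM in the deleted libraries, which are less deep, so it is not neutral between the groups. The 4 genes, with mean log2 CPM of 0.49 for Sorbs2, 0.24 for Lpcat2, 1.22 for Vat1l and −0.24 for Nkd1, did not depend on that filter.

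The 12 other chromosome 8 symbols of highest mean level had a median of only 0.15, and 4 rose, 1 fell and 7 did not pass. The risen ones were the adenylyl cyclase gene Adcy7 at 0.91 ± 0.11, Thsd1 at 0.75 ± 0.10, Mcf2l at 0.51 ± 0.12 and Neto2 at 0.45 ± 0.10 (SE; edgeR adjusted p of 0.0108 or lower). Neto2 encodes an auxiliary subunit of kainate receptors. Mcf2l did not pass when deleted 1 was left out (0.52; edgeR adjusted p = 0.0664), when deleted 2 was (0.48; 0.0868) or in the most counted bin (0.37; 0.129). Neto2 did not pass without deleted 1 (0.35; edgeR adjusted p = 0.0885) or in the most counted bin (0.31; 0.0718). The one that fell was Efnb2. Zfhx3, a homeodomain and zinc-finger factor gene, had 0.63 ± 0.26 and did not pass (edgeR adjusted p = 0.0902). It passed without wildtype 3 (0.98; edgeR adjusted p = 4.76e-05) and under the replicate block (0.998; 2.51e-06). In that block wildtype 3 does not enter the contrast either, so it is not a separate check. Insr, the insulin receptor gene, had −0.52 ± 0.19 (edgeR adjusted p = 0.0632) and passed without wildtype 2 (−0.64; 0.0399), without wildtype 3 (−0.31; 0.0435), under the block (−0.31; 0.0424), with TMM on symbol rows (−0.60; 0.0212), in the most counted bin (−0.84; 0.0294) and with DESeq2 (−0.52; adjusted p = 0.0356). Zfp827, Stox2, Phlpp2, D030068K23Rik and Mmaa had −0.23, −0.25, −0.08, 0.09 and 0.21, none past the threshold.

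Along the chromosome the shift was uneven. In 5 consecutive blocks of 32 or 33 symbols the medians were 0.24, 0.69, 0.52, 0.61 and 0.27 in chromosome order. Risen symbols numbered 11, 14, 17, 13 and 10, and both symbols that fell lay in the first block. Log2 fold changes were above 0 in 18 of 32, 26 of 32, 32 of 33, 29 of 32 and 25 of 33 symbols. Off chromosome 8 the share above 0 was 52.8%, near that of the first block (56.25%). Sorbs2 lies in block 2, Nkd1 and Lpcat2 in block 4 and Vat1l in block 5. The blocks were a description and their differences were not tested.

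**Figure D4:**
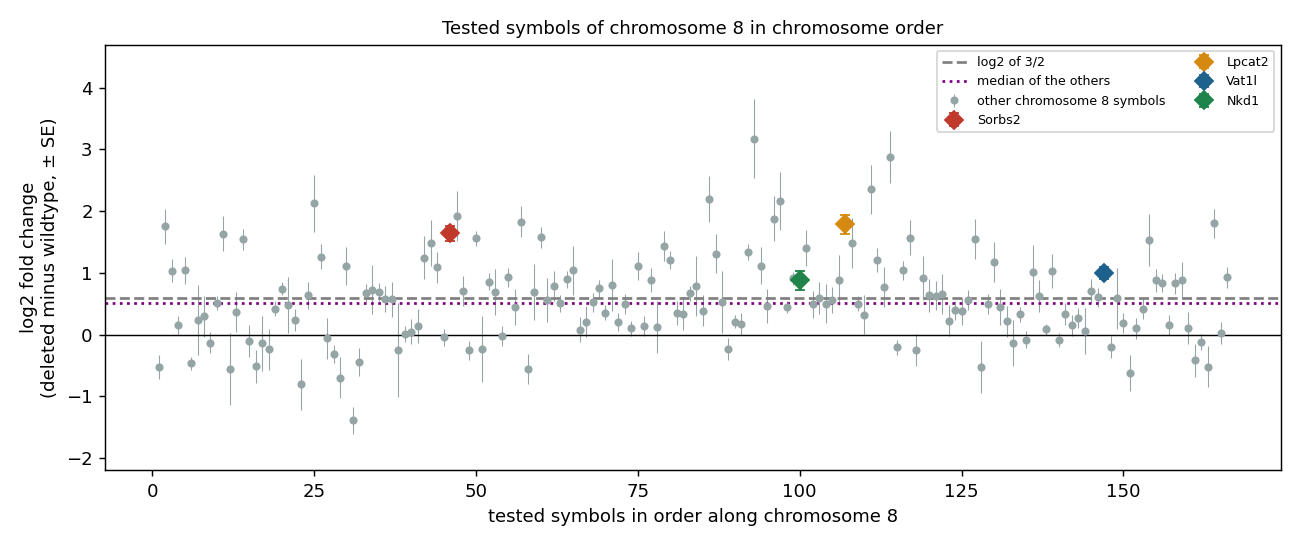
Log2 fold change, deleted minus wildtype, with SE (y axis), of the tested chromosome 8 symbols in chromosome order (x axis, rank), grey for the 162 others and diamonds for the 4 genes, with a dashed line at the log2 of 3/2 (0.58) and a dotted line at the median of the others (0.51). Values above 0 occur along the whole chromosome, fewest in the first block of 32 symbols (18 above 0), and Sorbs2 and Lpcat2 stand among the highest.

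For each gene the 2 nearest tested symbols on either side were taken, 16 in all. Of these 9 rose, none fell and 7 did not pass (edgeR adjusted p under 0.05), with 14 of 16 log2 fold changes above 0 and a median of 0.66. Among the 162 chromosome 8 symbols, which include these 16, 130 (80.2%) were above 0 and 40.1% rose, with a median of 0.51. The neighbours' share above 0 (87.5%) was near that of the chromosome. Their risen share (56.25%) and median were higher, a difference that was not tested.

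Beside Sorbs2, Pdlim3, whose protein binds alpha-actinin at the Z-disc, averaged 0.424 ± 0.0997 CPM in deleted cells (n = 2, SD), against 0.115 ± 0.0675 CPM in wildtype cells (n = 3, SD). The fitted log2 difference was 1.92 ± 0.40 (edgeR, SE; adjusted p = 0.00754), lost without deleted 2 (1.63; edgeR adjusted p = 0.0806). Fam149a had 1.09 ± 0.26 (edgeR adjusted p = 0.0122), lost without deleted 2 (0.67; 0.140). Tlr3, a receptor gene for double-stranded RNA on the near side of Sorbs2, had −0.05 ± 0.13 (edgeR adjusted p = 0.805), and 1700029J07Rik had 0.71 ± 0.25 (0.0530), which passed with at least 10 counts required in every library (0.0420). So Tlr3, the tested symbol just before Sorbs2, and Sorbs2 itself differed widely in their fold changes.

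Beside Nkd1, Adcy7 stood at 4.38 and 4.89 CPM in deleted 1 and 2, against 2.27, 2.40 and 2.69 CPM in wildtype 1, 2 and 3. Its log2 difference of 0.91 ± 0.11 (edgeR, SE; adjusted p = 0.000656) was close to that of Nkd1, and its call held with each library left out. Snx20, a sorting nexin gene, had 1.40 ± 0.29 (edgeR adjusted p = 0.00760), a call lost without deleted 1 (1.42; 0.0516) and without deleted 2 (1.35; 0.0573). Nod2, a sensor gene of bacterial cell wall fragments, had 0.49 ± 0.22 (edgeR adjusted p = 0.109).

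Beside Lpcat2, the noradrenaline transporter gene Slc6a2 had 1.48 ± 0.41 and the G protein gene Gnao1 0.50 ± 0.12 (SE; edgeR adjusted p = 0.0226 and 0.0145). Both calls were lost without deleted 1 (1.19 and 0.43; edgeR adjusted p = 0.178 and 0.111) and without deleted 2 (1.71 and 0.55; 0.0576 and 0.0537). Gnao1 did not pass in the most counted bin either (0.51; edgeR adjusted p = 0.0525). The noncoding RNA gene Crnde had 0.56 ± 0.21 (edgeR adjusted p = 0.0682) and passed without wildtype 3 (0.73; 0.0176) and under the replicate block (0.74; 0.0216), while the homeobox gene Irx5 had 0.88 ± 0.40 (0.120). Of these 4 neighbours, Gnao1 and Crnde had values below the log2 of 3/2, and Slc6a2 and Irx5 had values above it.

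Beside Vat1l, the coenzyme A hydrolase gene Nudt7 had 0.61 ± 0.15 and the lactate dehydrogenase gene Ldhd 0.71 ± 0.20 (SE; edgeR adjusted p = 0.0161 and 0.0244). The Nudt7 call ended without deleted 2 (0.44; edgeR adjusted p = 0.141), and the Ldhd call ended without deleted 1, deleted 2, wildtype 1 or wildtype 2 (0.55 to 0.83; edgeR adjusted p = 0.0520 to 0.180) and in the most counted bin (0.38; 0.374). On the far side, 1700030J22Rik had −0.20 ± 0.17 and Bco1, a carotene-cleaving enzyme gene, 0.59 ± 0.49, neither past the threshold.

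In the pathways in which the 4 genes work, few other genes could be tested, and those of the Wnt pathway moved in both directions. Of 38 other genes listed as Wnt feedback regulators and targets, 13 were tested, and 3 rose, 4 fell and 6 did not pass. All tested symbols moved in both directions too, with 18.9% rising and 12.9% falling. The median log2 fold change was −0.20 for the 13, against 0.07 for all symbols. None of the 13 lies on chromosome 8. Nkd2, the paralog of Nkd1, had 0.57 ± 0.12 (SE; edgeR adjusted p = 0.00901), lost without deleted 1 (0.58; 0.0562) and without deleted 2 (0.54; 0.0632). The Wnt inhibitor gene Wif1 and the target gene Sp5 had 1.89 ± 0.28 and 0.95 ± 0.16. Dact1, another gene for a Dishevelled-binding protein, fell to 2.75 ± 0.258 CPM in deleted (n = 2, SD), against 5.78 CPM in wildtype cells, a log2 difference of −1.07 ± 0.09 (edgeR, SE; adjusted p = 0.000222). Lef1, a transcription factor gene of the pathway, had −1.03 ± 0.17, and Cdx2 −1.32 ± 0.43 (edgeR adjusted p = 0.0436). The Cdx2 call ended without deleted 1 (−0.75; edgeR adjusted p = 0.254), without wildtype 1 (−1.31; 0.0819), without wildtype 3 (−1.21; 0.0569), under the replicate block (−1.22; 0.0637), in the most counted bin (−1.46; 0.0609) and with DESeq2 (−1.33; adjusted p = 0.0534).

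Among all tested symbols 18.9% rose, and the lists below are too short to read against that share. Of 24 listed relatives and partners of Sorbs2, 4 were tested, 2 rose and 2 did not pass, with a median log2 fold change of 0.28. Pdlim3, described above, is the only one of them on chromosome 8. Actn2 and Dnm1 had 0.28 ± 0.17 and 0.17 ± 0.11 (edgeR adjusted p = 0.223 and 0.253). Of 15 other genes listed as relatives of Vat1l and the quinone oxidoreductases, near or distant, 4 had rows under a symbol. Only 2 of them were tested, and both rose. Adh4 had 1.16 ± 0.33 (edgeR adjusted p = 0.0251), lost without deleted 1 (0.76; 0.232). Zadh2 had 0.36 ± 0.12 (edgeR adjusted p = 0.0420), a call lost without any single library (0.0567 to 0.196), under the replicate block (0.0734), with TMM on symbol rows (0.110), without a low-count filter (0.0657), with limma-voom (0.0513) and with DESeq2 (adjusted p = 0.0999). Of 25 listed genes of PAF and lysophospholipid metabolism other than Lpcat2, 2 had rows under a symbol and 0 could be tested, so the neighbours of Lpcat2 in its pathway were not analysed here.

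Profiles across the 5 libraries were compared by the root mean square difference of log2 CPM after centring each gene, where smaller means more alike. Vat1l and Nkd1 were 0.151 apart and Sorbs2 and Lpcat2 0.218, while the 4 crossed pairs were 0.319 to 0.469 apart. Among the 3587 other tested symbols, the nearest to Sorbs2 were Izumo4 on chromosome 10 (0.0676) and Zfp521 on chromosome 18 (0.0734). Those nearest to Lpcat2 were Trim47 on chromosome 11 (0.0864) and Nlrp4c on chromosome 7 (0.0922). Kcnj10 on chromosome 1 (0.0464) and Adgrb1 on chromosome 15 (0.0551) were nearest to Vat1l, and Lims2 on chromosome 18 (0.0510) and Sphk1 on chromosome 11 (0.0598) were nearest to Nkd1. None of these 8 lies on chromosome 8, which holds 162 of the 3587 symbols compared. Within a distance of 0.2 there were 38 symbols for Sorbs2, 6 of them on chromosome 8, and 19 with 3 for Lpcat2. For Vat1l there were 209 with 21 on chromosome 8, and for Nkd1 194 with 18. With 2 groups of libraries such likeness mostly says that genes differ between the groups by a like amount.

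Markers of other cell types were summed over each list, because Sorbs2 is abundant in heart muscle, Lpcat2 in macrophages and Vat1l in some neurons. In these bulk libraries more cells of a type and more RNA per cell cannot be told apart. As background for the counts below, 18.9% of all tested symbols were higher and 12.9% lower. Heart and skeletal muscle markers had 2 of 12 tested members higher and none lower, with sums of 17.3 to 17.4 CPM in deleted and 10.3 to 16.4 CPM in wildtype libraries. Macrophage markers had none higher and 1 of 5 lower, at 3.40 to 3.71 CPM in deleted and 4.81 to 4.94 CPM in wildtype libraries. Itgam, the 1 that was lower, made up most of these sums, with means of 2.80 CPM in deleted and 4.01 CPM in wildtype cells. Spi1 and Mpeg1 had log2 fold changes of 0.30 and 0.47, and Cd14 and Itgb2 −0.91 and −0.51, none past the threshold. Of 7 neuronal markers 1 was higher and 1 lower, at 9.27 to 9.44 CPM in deleted and 7.62 to 9.67 CPM in wildtype libraries. Of 20 listed markers of fibroblasts, the usual feeder cells, 8 were tested, and 5 were higher and none lower. The sums were 14.3 to 14.4 CPM in deleted and 10.1 to 13.3 CPM in wildtype libraries, with Fap at 0 throughout. Fbn1, the largest tested part of the sums, had a log2 fold change of 0.15, Col1a1 0.18 and Twist1 −0.17. These 3 did not pass (edgeR adjusted p = 0.499, 0.372 and 0.543). Primitive endoderm markers had 3 of 8 lower and none higher, at 5.20 to 6.47 CPM in deleted and 7.91 to 9.07 CPM in wildtype libraries, with Ttr at 0 throughout. The 11 tested markers of two-cell-like cells were all higher, at 17.2 to 17.6 CPM in deleted and 2.97 to 3.26 CPM in wildtype libraries. The part of these cells in the levels of the 4 genes was not tested.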

How the data were processed

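The authors deposited raw read counts per exon bin in 1 table of 243771 rows and 5 libraries. Per the submitters' processing notes, STAR and mm9 were used. The sources used here give neither annotation nor strand setting. Reads that cross bins enter the count of every bin they touch. Here bins were summed per gene, 56 spike-in names were left out, and low genes were removed by filterByExpr and libraries scaled by TMM. The test was the quasi-likelihood one of edgeR 4.0.16 in R 4.3.3 (DESeq2 1.42.0 and limma 3.58.1 for alternatives), with Benjamini-Hochberg adjustment over all tested genes and a threshold of 0.05. Log2 fold changes are deleted minus wildtype. Replicates differed beyond counting noise (chi-square per degree of freedom of 9.96 to 93.4 within groups, raised by reads counted in several bins), and none were merged.

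The 4 genes and the lists were chosen with earlier results of these data known. Named besides are the 2 nearest tested symbols on either side, the 12 chromosome 8 symbols of highest level, the 2 nearest profiles per gene and up to 6 members per pathway list by p. Profiles used log2 CPM with a prior count of 2, and medians per library log2 of CPM plus 0.05. Each ± is an SD between libraries or an edgeR SE. That SE is the absolute log2 fold change divided by the square root of the quasi-likelihood F statistic, also for the 4 genes. Alternatives were other scalings, filters, tools, the most counted bin, a replicate block and leaving out each library. One tested gene of the pathway lists is counted but its values are not reported here.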

Additional observations from a re-analysis of the deposited data

How the results depend on the processing

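The direction of Sorbs2, Lpcat2, Vat1l and Nkd1 was the same under each of the 14 alternatives per gene, and their fold changes stayed above 3/2 except that of Nkd1 in the most counted bin. Fitted folds ran from 3.14 to 3.85 for Lpcat2, 2.87 to 3.31 for Sorbs2, 1.89 to 2.12 for Vat1l and 1.37 to 2.05 for Nkd1. In the most counted bin the log2 fold changes of Nkd1 and Vat1l were 0.45 and 1.09, the chromosome 8 median was 0.38, and 32 of its 113 symbols tested were higher and 4 lower, against 350 higher and 369 lower of 2592 off chromosome 8. With TMM on symbol rows Vat1l had 0.92, and the medians on and off chromosome 8 were 0.43 and −0.030. Without a low-count filter the median off chromosome 8 was −0.0060, and with at least 10 counts in every library the chromosome 8 median was 0.45. With a mean log2 CPM of 0 or higher, chosen after seeing the data, 19 of 45 chromosome 8 symbols were higher and 1 lower. Off chromosome 8, 195 of 967 were higher and 230 lower, and the medians were 0.33 on and −0.027 off the chromosome. That setting tests fewer symbols. The cause of the other shifts was not tested.

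Leaving out 1 library gave 3206 to 8282 called genes, 37 to 69 higher and 1 to 4 lower chromosome 8 symbols, and medians off chromosome 8 of 0.021 to 0.066. Log2 fold changes then ran from 0.68 to 1.04 for Nkd1, 1.52 to 1.73 for Sorbs2 and 0.95 to 1.01 for Vat1l. The labels give deleted and wildtype libraries the shared numbers 1 and 2 without saying what they mark. Deviations from the group means correlated at 0.0536 and −0.0539 across genes, so the numbers were not taken to pair the libraries. With the replicate block 8250 genes passed, and 69 of 162 chromosome 8 symbols were higher and 4 lower. Off chromosome 8, 664 of 3412 were higher and 466 lower, and the median was 0.072. The block leaves wildtype 3 without a partner. Of 520 values for the 38 other genes taken by the naming rules under the alternatives, 462 kept their call and 0 changed direction with a call, 47 lost it and 11 gained it.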
